A study of Mus musculus with 21 samples.

Results

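The 9 genes described here are the mouse inhibitors of cyclin-dependent kinases, Cdkn2a, Cdkn2b, Cdkn2c, Cdkn2d, Cdkn1a, Cdkn1b and Cdkn1c, together with Trp53, which encodes p53, and Mdm2, which encodes the ligase that turns p53 over. They were chosen by name, through the RefSeq accession of each probe on the array, and all 9 had a probe among the 20018 genes that could be named. They were read by 12 of 26413 named probes, since Cdkn2a, Cdkn2b and Cdkn1a had 2 probes each and the others 1. For each gene the probe with the highest mean level over the 21 arrays was taken as its main probe, and the other probe served as a check.

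Single-colour Agilent arrays were used in 3 experiments on Bach2 and Bach1, 2 related leucine zipper repressors of transcription. One compared common lymphoid progenitors (CLPs), bone marrow cells with lymphoid potential, of wild-type (WT) mice and of mice deficient in both Bach1 and Bach2 (DD), sorted after lineage-positive cells had been partly removed. In the second, multipotent progenitors (MPPs) from WT mice, pooled from 4 mice per experiment, were kept overnight in SCF (50 ng/ml), interleukin 3 (5 ng/ml) and interleukin 6 (10 ng/ml) and then infected with the retroviral vector MSCV carrying GFP alone (control vector) or Bach2 and GFP. GFP-positive cells of both were sorted after 2 days under multilineage conditions, and a further Bach2-vector group spent 24 h there and 6 days under B-lineage conditions before cells positive for GFP and B220, a B-lineage surface marker, were sorted. The remaining experiment compared WT follicular B cells with follicular B cells lacking Bach2 (Bach2KO), each held 24 h in an anti-IgM Fab' at 10 ug/ml to stimulate the antigen receptor. There were 7 groups of 3 arrays. All 9 MPP arrays came from WT cells exposed to the same cytokines and to a vector, and all 6 follicular B-cell arrays from cells exposed to anti-IgM, so neither experiment held an untreated group. Neither the ages of the animals nor whether arrays of a group came from separate animals is stated in the labels, and for follicular B cells the labelling protocol speaks of 1 RNA sample. The p-values therefore measure only the spread between arrays, which may be technical.

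Progress from G1 into S phase is driven by cyclin D with Cdk4 or Cdk6 and by cyclin E with Cdk2, which phosphorylate the retinoblastoma protein and release E2F factors. The Ink4 proteins p16 (from Cdkn2a), p15 (Cdkn2b), p18 (Cdkn2c) and p19 (Cdkn2d) bind Cdk4 and Cdk6, and the Cip and Kip proteins p21 (Cdkn1a), p27 (Cdkn1b) and p57 (Cdkn1c) bind cyclin-kinase complexes more broadly. Cdkn2a also encodes Arf in another reading frame, which holds back Mdm2 and so stabilises p53, and Cdkn1a is a classical target of p53. In lymphocytes, Cdkn2c and Cdkn1b are known as brakes on proliferation, and the Cdkn2a and Cdkn2b locus is usually kept silent by Polycomb proteins.

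Levels are given as log2 of the processed spot signal minus log2 of the array's 75th percentile, so that 0 is the signal of a bright probe and a step of 1 is a factor of 2. That percentile lay at signals of 2858 to 5127 on the CLP arrays, 2071 to 3377 on the MPP arrays and only 97.33 to 357.5 on the follicular B-cell arrays, and 66.8% to 81.5%, 62.6% to 81.4% and 50.9% to 58.8% of probes were well above background there. The background therefore sat nearer to the scale's 0 in follicular B cells, and levels of dim probes cannot be set against each other across experiments. Bach2 itself, the check of the labels, had a mean level of 3.37 ± 0.27 (SD, n = 3) in WT and -0.39 ± 0.54 in Bach2KO follicular B cells, 13.5-fold lower (limma adjusted p = 0.000918). It differed by -2.11 ± 0.58 (SE) between DD and WT CLPs and by 1.15 ± 0.60 between Bach2-vector and control-vector MPPs, with adjusted p-values of 0.999 and 0.775. In the B220+ cells from the Bach2-vector culture it was not higher than in control-vector MPPs (-0.12 ± 0.60, adjusted p = 0.909) and differed by -1.27 ± 0.60 from Bach2-vector MPPs (adjusted p = 0.23), so that the vector of this group is known from the labels alone. Bach1 differed by -0.52 ± 0.45 between DD and WT CLPs (adjusted p = 0.999). Whether the Bach1 and Bach2 probes fall inside the deletions or the vector insert was not checked here.

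The sequences around the starts of Cdkn2a, Cdkn2b and Cdkn1a are shown because these were the members that rose in Bach2KO follicular B cells. They are the RefSeq windows of assembly GRCm38.p6, from 250 bases before to 50 bases after an annotated start, written 5′ to 3′ on the gene's strand. Capitals mark a GC box (GGGCGG, on either strand) or, in the first window of Cdkn1a, a pair of p53 cores (CATG, any 6 bases, CATG), a motif added after the window was seen. Cdkn2a has 2 windows, on the minus strand of chromosome 4: the first at the outer end of the gene, chr4:89294570-89294869, and the second further inside, chr4:89282143-89282442.
Cdkn2a outer start: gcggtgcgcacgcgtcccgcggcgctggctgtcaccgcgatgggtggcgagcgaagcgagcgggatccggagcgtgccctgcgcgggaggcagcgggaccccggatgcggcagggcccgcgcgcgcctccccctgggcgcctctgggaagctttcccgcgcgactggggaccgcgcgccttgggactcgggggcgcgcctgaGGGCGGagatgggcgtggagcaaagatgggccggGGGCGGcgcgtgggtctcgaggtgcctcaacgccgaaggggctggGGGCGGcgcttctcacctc
Cdkn2a inner start: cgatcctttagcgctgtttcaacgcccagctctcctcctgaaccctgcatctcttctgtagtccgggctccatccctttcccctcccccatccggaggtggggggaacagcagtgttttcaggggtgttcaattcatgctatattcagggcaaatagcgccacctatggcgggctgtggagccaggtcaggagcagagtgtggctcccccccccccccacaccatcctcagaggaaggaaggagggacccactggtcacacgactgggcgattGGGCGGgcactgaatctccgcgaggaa
Cdkn2b, on the same strand, has the window chr4:89310983-89311282, and 11669 bases lie between the annotated ends of both genes.
Cdkn2b: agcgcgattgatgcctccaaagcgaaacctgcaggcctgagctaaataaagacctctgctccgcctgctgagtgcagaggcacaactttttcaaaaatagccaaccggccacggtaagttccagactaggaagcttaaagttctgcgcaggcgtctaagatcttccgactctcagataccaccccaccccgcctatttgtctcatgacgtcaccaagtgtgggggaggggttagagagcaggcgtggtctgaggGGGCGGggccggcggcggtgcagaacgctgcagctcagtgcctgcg
Cdkn1a, on the plus strand of chromosome 17, has windows at chr17:29090729-29091028 and chr17:29093519-29093818.
Cdkn1a first start: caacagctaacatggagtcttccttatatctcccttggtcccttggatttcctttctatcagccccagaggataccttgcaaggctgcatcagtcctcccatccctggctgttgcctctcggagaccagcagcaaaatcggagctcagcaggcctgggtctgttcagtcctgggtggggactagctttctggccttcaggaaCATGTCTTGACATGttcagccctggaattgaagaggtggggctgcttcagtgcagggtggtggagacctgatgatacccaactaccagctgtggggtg
Cdkn1a inner start: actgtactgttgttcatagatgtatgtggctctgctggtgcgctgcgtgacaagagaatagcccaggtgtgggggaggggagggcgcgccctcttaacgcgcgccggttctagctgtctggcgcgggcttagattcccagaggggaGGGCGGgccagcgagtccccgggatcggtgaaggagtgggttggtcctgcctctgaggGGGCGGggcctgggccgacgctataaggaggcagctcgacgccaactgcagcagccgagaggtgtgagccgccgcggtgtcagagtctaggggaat

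Motifs were counted on both strands in the 11 windows of the 8 members that had one (Cdkn1c had none), beside all 32817 windows of the same length. The letters TGAGTCA, a core that AP-1 and Bach proteins bind, occurred in 0 of the 11 windows and in 5.2% of all windows, which says only that these letters are not in these 300 bases. GC boxes stood 3 times in the outer and 1 time in the inner Cdkn2a window, 1 time in that of Cdkn2b and 2 times in the inner window of Cdkn1a, and in 35.6% of all windows. They also stood in windows of members that did not rise in Bach2KO: 5 times for Cdkn2d, 4 for Cdkn2c, 2 for Mdm2 and 1 for Cdkn1b. The paired p53 core occurred in the first Cdkn1a window and in no other member's window, Mdm2 included, and in 0.71% of all windows. The E-box CACGTG (7.15% of windows) occurred in 1 window of Cdkn2c and in that of Trp53, and the E2F motif TTTGGCGC (0.515%) in 0 member windows. The motifs searched do not overlap one another in the printed windows.

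In follicular B cells under anti-IgM, loss of Bach2 went with higher signal of 3 inhibitors, Cdkn2a, Cdkn2b and Cdkn1a, while the other 6 genes did not pass in the fit without a replicate block. A gene was said to pass, to rise or to fall at a Benjamini-Hochberg adjusted p under 0.05 over all genes tested (limma). All 9 members were tested, 3 rose and 0 fell. Cdkn2a and Cdkn2b met the filter for testing, 3 arrays above background, only through the Bach2KO arrays. With the replicate number as a block, since arrays of equal number deviated together here, 3 more passed, as lower (Cdkn1b, Cdkn1c and Cdkn2d). That made 6 of 9 members, beside 2980 of all 13073 genes tested. In the fit without a block, 2.21% of the 13073 genes rose and 0.513% fell, 356 genes (2.72%) in all. Levels in the 2 genotypes did not overlap for 7 of the 9 members, against 18.7% of all genes.

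Cdkn2a was well above background on all Bach2KO arrays and on no WT array. Its level was -7.13, -6.12 and -5.31 on the WT arrays, and -0.99, 0.16 and 0.29 on the Bach2KO arrays. The genotypes did not overlap, and the lowest Bach2KO array lay far above the highest WT array. The difference was 6.00 ± 0.53 on the log2 scale (95% interval 4.81 to 7.20, adjusted p = 0.000755). Because the WT arrays were not well above background, the change is stated as a bound, at least 21.6-fold higher in Bach2KO. The gene met the filter only through the Bach2KO arrays. Its difference, interval and p-value rest on WT values not above background and are no measured size. Such bounds set the Bach2KO mean against, per WT array, the higher of the probe's own signal and the lowest signal among probes well above background. Its main and other probe are both listed under the RefSeq transcript of Arf, but their place within the gene was not examined, and p16 shares part of the gene, so the products cannot be told apart. On the other Cdkn2a probe the levels were -7.00, -6.43 and -6.59 in WT and -5.83, -4.66 and -3.76 in Bach2KO. These groups did not overlap either, but only 1 array, the third of Bach2KO, was well above background, and the probe was not tested.

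Cdkn2b, the neighbour of Cdkn2a, had levels of -5.53, -6.51 and -6.59 in WT and -1.44, -1.61 and -2.53 in Bach2KO. Again 0 WT arrays and 3 Bach2KO arrays were well above background and the groups did not overlap. The difference was 4.35 ± 0.42 (95% interval 3.39 to 5.31, adjusted p = 0.000918), at least 6.74-fold. The other probe of Cdkn2b gave a larger one, from -5.44, -6.19 and -5.46 in WT to 0.12, 0.58 and 0.40 in Bach2KO. There the difference was 6.07 ± 0.33, at least 31.6-fold, with an adjusted p of 0.000166 in a fit over every named probe, in which 2.49% of probes passed. Both probes of this gene thus passed. Each met the filter only through the Bach2KO arrays, so these differences and p-values rest on WT values not above background.

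Cdkn1a differed from these genes in having signal in WT cells as well. Its main probe, printed in 10 spots on each array, read -2.01, -2.33 and -2.99 in WT and 1.89, 1.4 and 1.0 in Bach2KO, all well above background. The groups did not overlap and the rise was 14.7-fold (3.88 ± 0.38, 95% interval 3.02 to 4.73, adjusted p = 0.000918). Within the pairs of equal replicate number the rise was 3.90, 3.74 and 3.99. The other Cdkn1a probe, listed under another transcript, read -6.85 and -6.19 on the WT arrays 1 and 3 (the spot on array 2 carried an outlier mark and was left out) and -7.50, -5.33 and -4.21 in Bach2KO. Of the values used, only that of Bach2KO array 3 was well above background, the genotypes overlapped and the probe was not tested. Averaged over both probes the Cdkn1a difference was 1.66 and did not pass (adjusted p = 0.325).

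**Figure D1:**
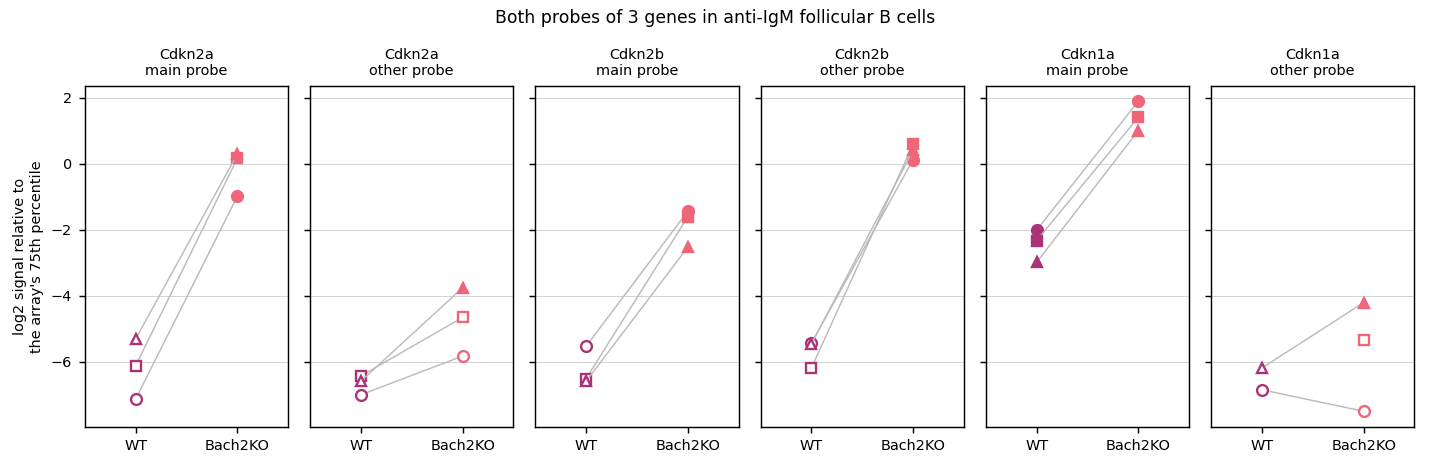
Level of the main and other probe of Cdkn2a, Cdkn2b and Cdkn1a (vertical axis, log2 signal against the 75th percentile of its array) in WT and Bach2KO follicular B cells. Circles, squares and triangles are replicates 1, 2 and 3, lines join equal numbers, and open symbols were not well above background; the main probes and the other Cdkn2b probe were higher on all 3 Bach2KO arrays, while the other Cdkn1a probe overlapped.

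For these 3 genes the signal was higher in Bach2KO on both slides that held follicular B-cell arrays. For Cdkn2a and Cdkn2b no WT array was well above background. Their differences and p-values in this paragraph are therefore no measured size. On slide 1, with 1 array per genotype, and on slide 2, with 2 per genotype, the differences were 6.14 and 5.94 for Cdkn2a, 4.09 and 4.48 for Cdkn2b and 3.90 and 3.86 for Cdkn1a. Leaving out any Bach2KO array put Cdkn2a and Cdkn2b below the filter, which asks for 3 arrays above background, so that only Cdkn1a was tested and passed. With the filter at 2 arrays, chosen after seeing this, all 3 passed without any 1 Bach2KO array, at adjusted p-values of up to 0.00739 for Cdkn2a, 0.00667 for Cdkn2b and 0.00761 for Cdkn1a. Under normexp background correction with an offset of 50, Cdkn2b differed by 0.99 and did not pass (adjusted p = 0.266), and Cdkn2a differed by 1.97 and passed (adjusted p = 0.0291).

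The other Ink4 genes, Cdkn2c and Cdkn2d, were well above background on every follicular B-cell array. Cdkn2c read -0.53, -1.0 and -0.25 in WT and -1.11, -1.51 and -0.28 in Bach2KO, with overlap, and differed by -0.38 ± 0.40 (adjusted p = 0.755). Cdkn2d read 2.15, 1.66 and 1.86 in WT and 1.09, 1.47 and 1.22 in Bach2KO. Every Bach2KO array was the lower, but the difference of -0.63 ± 0.30 did not pass (adjusted p = 0.512).

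The Kip genes also stood lower in Bach2KO without passing. Cdkn1b, which encodes p27, read 3.07, 2.80 and 3.00 in WT and 2.12, 2.38 and 2.33 in Bach2KO, a difference of -0.68 ± 0.29 (adjusted p = 0.425). Cdkn1c, which encodes p57, read -3.0, -3.13 and -3.71 in WT and -4.01, -4.49 and -4.09 in Bach2KO, where array 2 was not well above background, and differed by -0.92 ± 0.33 (adjusted p = 0.291). Neither gene's genotypes overlapped. The arrays of equal replicate number deviated together in this experiment, and with the replicate number as a block Cdkn1b, Cdkn1c and Cdkn2d passed as lower, with adjusted p-values of 0.028, 0.00905 and 0.0478. Cdkn1c also passed as lower with slide as a block (-0.92, adjusted p = 0.0441).

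Trp53 and Mdm2 did not pass in either fit. Trp53 read 0.84, 1.23 and 1.2 in WT and 0.78, 0.42 and 0.21 in Bach2KO. The lowest WT array stood just above the highest Bach2KO array, and the difference was -0.62 ± 0.31 (adjusted p = 0.54). Mdm2 read 4.40, 3.79 and 3.95 in WT and 4.19, 3.52 and 4.05 in Bach2KO, with overlap and a difference of -0.13 ± 0.33 (95% interval -0.88 to 0.62, adjusted p = 0.904).

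**Figure D2:**
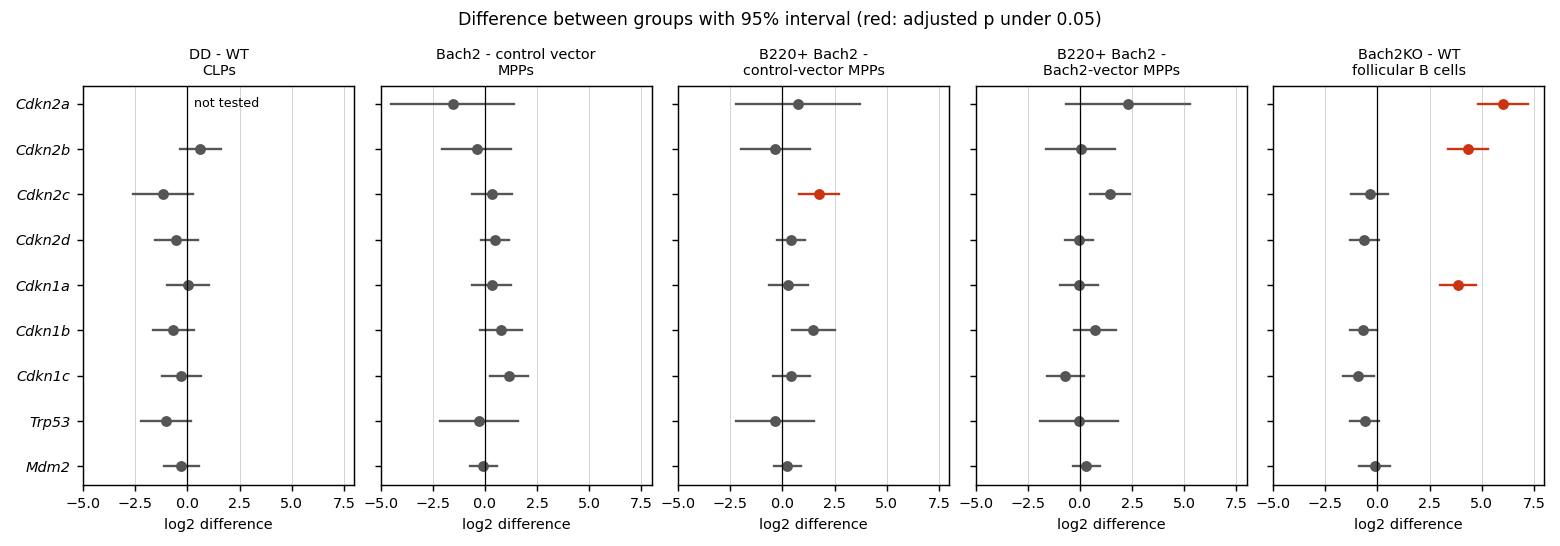
Log2 difference of each gene's main probe between groups (points, first group minus second as named above each panel) with its 95% interval in 5 comparisons. Red marks an adjusted p under 0.05: Cdkn2a, Cdkn2b and Cdkn1a in follicular B cells and Cdkn2c between B220+ Bach2-vector cells and control-vector MPPs; Cdkn2a was not tested in CLPs.

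Genes around these inhibitors were read from lists drawn up by function. All list counts are from the fit without a replicate block and were not made with it. In follicular B cells that fit passed 356 genes, against 2980 with the block. Of the p53 target genes, 23 of 26 were tested in follicular B cells and 0 passed, with a median difference of -0.22 beside -0.16 for all genes. Gadd45a, a stress-induced growth arrest gene, differed by 1.41 ± 0.33 (adjusted p = 0.0698). Ddb2, a DNA damage sensor, the death receptor gene Fas, and Phlda3, an inhibitor of Akt signalling, differed by -1.20, -1.19 and -0.94, with adjusted p-values of 0.293, 0.312 and 0.353. Of 12 regulators of p53, such as Atm, Atr and Usp7, 0 passed.

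Among the kinases and cyclins that the inhibitors act on, 11 of 13 were tested and 1 rose, Ccnb2, which encodes the mitotic cyclin B2. Its level ranged from -0.77 to -0.08 in WT and from 0.83 to 1.65 in Bach2KO, a 3.27-fold rise (1.71 ± 0.35, adjusted p = 0.0367). Ccnd2, the cyclin D that B cells induce after receptor engagement, ranged from 5.84 to 6.55 in WT and from 2.69 to 4.95 in Bach2KO, without overlap. It differed by -2.18 ± 0.55 and did not pass (adjusted p = 0.0877). Of 13 pocket protein and E2F genes 0 passed, with E2f1 at -0.86 ± 0.51.

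Of the 11 proliferation markers tested, 0 passed, 4 were higher and 7 lower, and their median difference was -0.56. Mki67 differed by 1.17 ± 0.45 (adjusted p = 0.346) and the replication genes Mcm2, Mcm3 and Mcm5 by -1.05, -0.91 and -0.87. Among regulators of the Ink4 and Arf genes, which include the Polycomb genes, 0 of 16 tested passed, 2 were higher and 14 lower, with a median of -0.57. Ets1, which encodes an activator of p16 transcription, differed by -0.84 ± 0.34 (adjusted p = 0.4) and Id1 by -0.82 ± 0.35 (adjusted p = 0.427). Of 9 regulators of the Cip and Kip genes and proteins 0 passed, with Foxo4 at -1.16 ± 0.35 (adjusted p = 0.178).

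**Figure D3:**
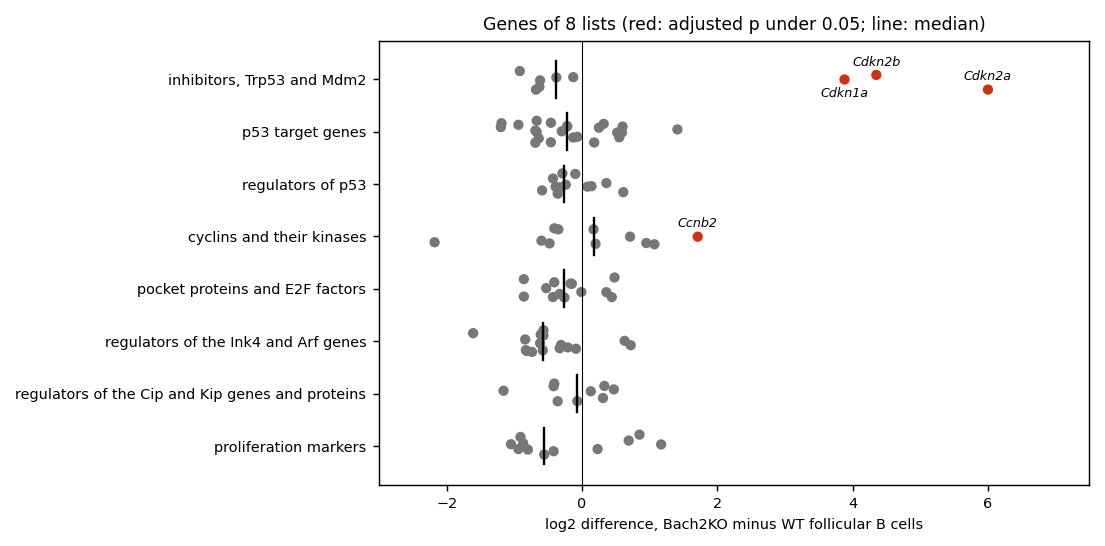
Log2 difference between Bach2KO and WT follicular B cells (horizontal axis) for each tested gene of 8 lists, the 9 genes described here on top. Black bars are list medians and red points passed in the fit without a replicate block. Cdkn2a, Cdkn2b, Cdkn1a and Ccnb2 were the genes that passed.

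Markers of cell types were measured on the same arrays. All 6 B-lineage markers were well above background in both genotypes, with a log2 summed level of 8.62 to 9.49 in WT and 7.69 to 8.40 in Bach2KO. Among 6 granulocyte and monocyte markers, 4 were above background on all WT arrays and 5 on all Bach2KO arrays, with summed levels of 2.34 to 4.24 and 2.81 to 4.59. Single markers of this list went either way, some averaging higher and some lower in Bach2KO. Mpo was above background on 0 WT arrays and 1 Bach2KO array. Lyz2, a myeloid lysozyme gene, averaged -4.27 ± 0.99 (SD, n = 3) in WT and -1.47 ± 1.13 in Bach2KO, and Pf4, a platelet factor, -6.18 ± 0.77 (not well above background) and -2.60 ± 0.94. T-cell markers summed to 3.06 to 4.03 in WT and 2.91 to 4.62 in Bach2KO, with 3 of 4 above background throughout. The 3 NK-cell markers (Ncr1, Klrb1c, Klrd1) and the 3 mast-cell and basophil markers (Cpa3, Mcpt8, Fcer1a) were above background on no array of either genotype. Of the erythroid and megakaryocyte markers, Gata1 and Klf1 were likewise above background on none. The part of other cells in the 3 rises was not tested, and in such bulk samples fewer cells of a type and less RNA per cell cannot be told apart.

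In CLPs deficient in both factors, 0 of the 8 members tested passed, against 1 of 16466 genes overall (0.00607%). At an unadjusted p under 0.05, 619 of all genes stood out, none of them a member. Cdkn1a, 14.7-fold higher in Bach2KO follicular B cells, read 1.94, 3.01 and 2.00 in WT CLPs and 2.05, 2.88 and 2.09 in DD CLPs. These values interleave, and the difference was 0.02 ± 0.43 (95% interval -0.97 to 1.01). Cdkn2b read -6.57, -7.16 and -6.83 in WT and -7.05, -6.02 and -5.66 in DD, above background on 1 and 2 arrays, and differed by 0.62 ± 0.44. Its other probe went the opposite way, from -6.22, -8.29 and -7.31 in WT to -8.74, -8.36 and -8.40 in DD. There the DD arrays lay below all WT arrays, but only 1 array, the first of WT, was well above background, and the probe was not tested. Averaged over both probes the Cdkn2b difference was -0.31. Cdkn2a was above background on 1 CLP array, the third of WT, at -4.93, and was not tested. In a fit of the difference between both losses, chosen after these values were seen, 3 of 9 members passed, Cdkn1a, Cdkn2b and Cdkn2a, against 0.485% of 16690 genes. For Cdkn2a and Cdkn2b that fit rests on values mostly not above background, in WT follicular B cells and in CLPs, so no size is read from it.

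The other members overlapped between the CLP genotypes. Cdkn2c read 3.04, 4.32 and 3.96 in WT and 3.81, 2.54 and 1.42 in DD, where arrays 2 and 3 were below every WT array and array 1 was not, and differed by -1.18 ± 0.63. Trp53 read -0.53, 0.34 and 0.78 in WT and -1.74, -0.08 and -0.71 in DD, lower in each of the 3 pairs, and differed by -1.04 ± 0.53. Cdkn2d, Cdkn1b, Cdkn1c and Mdm2 differed by -0.54, -0.69, -0.29 and -0.30. Every adjusted p of a member was 0.999, and on the main probes no member's genotypes were separate, against 7.91% of all genes. All 4 markers listed for CLPs (Il7r, Flt3, Kit and Ly6a) were above background on every CLP array of both genotypes. The same held in the 3 MPP groups, so their presence does not set CLPs apart here. Ly6a averaged 1.86 ± 0.04 (SD, n = 3) in WT and 3.83 ± 0.44 in DD CLPs.

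Of the pathway lists 0 genes passed in CLPs. Of 3 list genes named after their values were seen, Cdk6, the partner of cyclin D, differed by a log2 value of -2.15 ± 0.72 (SE, DD minus WT), Id1 by 1.81 ± 0.60 and Zbtb16, a zinc finger repressor gene, by -1.58 ± 0.52, each with an adjusted p of 0.999. All 12 proliferation markers were higher in DD, by a median of 0.22 beside 0.04 for all genes, without 1 of them passing.

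Adding Bach2 to MPPs left all 9 members short of the threshold, while 1.8% of 16991 genes passed. Cdkn1c was the member nearest to it among the main probes. Its level was -2.72, -2.05 and -2.25 with the control vector and -1.85, -0.82 and -0.94 with Bach2, all Bach2-vector arrays above all control-vector arrays. The difference of 1.14 ± 0.40 (2.20-fold) had an adjusted p of 0.33, and on the main probes it was the only member whose groups were separate, against 14.9% of all genes. Cdkn1b differed by 0.76 ± 0.45, Cdkn2d by 0.47 ± 0.30 and Cdkn1a by 0.32 ± 0.41, each higher in all 3 pairs of equal replicate number, with adjusted p-values of 0.919 to 1. Cdkn2c differed by 0.33, Mdm2 by -0.08 and Trp53 by -0.31.

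The locus that rose without Bach2 in B cells was near background in MPPs. Cdkn2b on its main probe read -7.73, -4.57 and -5.65 with the control vector and -6.40, -7.06 and -5.65 with Bach2, with overlap (-0.38 ± 0.73). On its other probe the levels were -7.24, -4.47 and -4.20 with the control vector, arrays 2 and 3 being well above background, and -9.03, -8.13 and -9.15 with Bach2, none above background. The groups were separate, at least 2.5-fold lower with Bach2, but this did not pass (-3.46 ± 1.16, adjusted p = 0.32), and the probes disagree. Cdkn2a read -6.75, -4.37 and -8.38 with the control vector and -8.26, -8.32 and -7.58 with Bach2, above background on 2 and 0 arrays, and differed by -1.55 ± 1.31. Among the pathway lists, 1 gene passed here, Foxo1, which encodes an activator of Cdkn1b transcription (1.26 ± 0.26, adjusted p = 0.049).

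B220+ cells from the Bach2-vector culture had more Cdkn2c, the p18 gene, than control-vector MPPs. Cdkn2c read 2.24, 2.03 and 1.53 in control-vector MPPs and 3.94, 4.38 and 2.76 in the B220+ cells, without overlap. The rise was 3.39-fold (1.76 ± 0.43, adjusted p = 0.0293), and 1 of 9 members passed, against 12.1% of all genes in either direction and 4.65% as higher. The call did not hold without B220+ array 1 or 2 or control-vector array 2 or 3, where the adjusted p rose to 0.0841 to 0.104, nor with slide as a block (adjusted p = 0.103) or with only both groups fitted (adjusted p = 0.0582). All 3 B220+ arrays lay on slide 1, with 1 control-vector array, and within that slide the difference was 1.46. Against Bach2-vector MPPs, at 2.16, 1.95 and 2.68, it was 1.43 ± 0.43 and did not pass (adjusted p = 0.0855), except without B220+ array 3 (1.90, adjusted p = 0.0116).

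Cdkn1b was next, at 2.20, 1.72 and 2.61 in control-vector MPPs and 3.96, 4.22 and 2.80 in B220+ cells. The groups were separate by the narrow gap between 2.61 and 2.80. The difference of 1.48 ± 0.45 (2.80-fold) missed the threshold (adjusted p = 0.0642) and passed without B220+ array 3 (1.91, adjusted p = 0.0164), under quantile normalization (1.57, adjusted p = 0.0412), with a variance trend (adjusted p = 0.0443) and with the filter on all arrays (adjusted p = 0.048). Cdkn2d, at 4.80, 5.24 and 5.35 against 5.40, 5.82 and 5.43, was also separate, by a difference of 0.42 ± 0.30 (adjusted p = 0.371), and passed under quantile normalization (0.94, adjusted p = 0.0345). Separate groups were thus found for 3 of 9 members, against 34.5% of all genes. Cdkn1a, Cdkn1c, Mdm2, Trp53, Cdkn2a and Cdkn2b differed from control-vector MPPs by 0.27, 0.43, 0.22, -0.36, 0.74 and -0.35.

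Between B220+ cells and Bach2-vector MPPs 0 of 9 members passed, against 6.17% of all genes, and 1 member was separate, Cdkn2c, against 29.2% of genes. Both B220+ comparisons use the same B220+ arrays, and the control-vector arrays also serve the vector comparison. Cdkn2a read -4.42, -4.02 and -8.85 in B220+ cells, array 3 being not well above background, and differed by 2.29 ± 1.31 from Bach2-vector MPPs (adjusted p = 0.309). Without that array it was 3.83 higher and passed (adjusted p = 0.0432). Cdkn1b differed by 0.72, Mdm2 by 0.30, Cdkn2b by 0.03, Trp53 by -0.04, Cdkn2d and Cdkn1a by -0.05 each and Cdkn1c by -0.70. The median over all genes was -0.29 against control-vector and -0.25 against Bach2-vector MPPs, so the members' medians of 0.42 and 0.03 stood above it.

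Genes of the pathway lists also passed in B220+ cells. Against control-vector MPPs, 4 of 25 tested p53 target genes rose and 1 fell, beside 4.65% of all genes as higher and 12.1% in either direction. Ddb2 rose 4.89-fold (2.29 ± 0.31, adjusted p = 0.00222), Trp53inp1, a p53-induced nuclear protein gene, 5.20-fold (2.38 ± 0.41, adjusted p = 0.00671) and Bbc3, which encodes the death protein Puma, 3.13-fold (1.64 ± 0.33, adjusted p = 0.0131). Tigar, a regulator of glycolysis, fell by 1.64 on the log2 scale (adjusted p = 0.00691). Ccnd1, which encodes cyclin D1, rose 9.46-fold (3.24 ± 0.42, adjusted p = 0.0017). Foxo1 rose by 1.53 and Klf4, an activator of Cdkn1a transcription, by 3.02, while Hmga2, known to restrain the Cdkn2a locus in stem cells, fell by 2.42 and Id1, which opposes Ets activation of p16, by 1.51. Against Bach2-vector MPPs 3 list genes passed: Bbc3 rose by 1.36 and Klf4 by 4.04, and Hmga2 fell by 3.37.

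The B220+ cells had a summed B-lineage marker level of 3.26 to 3.95, beside 2.93 to 3.62 in control-vector MPPs. Of 6 B-lineage markers 3 were well above background on all 3 arrays, Ms4a1 on 0 and Ebf1 on 1. Pax5, a B-lineage transcription factor gene, averaged -5.80 ± 0.23 (SD, n = 3), beside -4.94 ± 0.34 in control-vector MPPs, Cd79b, which encodes a part of the B-cell receptor, 3.63 ± 0.36 beside 3.20 ± 0.36, and Ebf1 -6.16 ± 1.39 beside -8.27 ± 0.79. The myeloid enzyme gene Mpo averaged 6.73 ± 0.16 in B220+ cells and 6.81 ± 0.09 in control-vector MPPs. The 6 granulocyte and monocyte markers summed to 7.12 to 7.53 beside 7.28 to 7.79, and single markers differed in either direction. NK-cell markers, of which Ncr1 was above background on no array of either group, summed to 4.70 to 5.74 beside -1.48 to 1.05. Mast-cell and basophil markers summed to 4.27 to 6.92 beside 2.69 to 4.18. In Bach2-vector MPPs the NK-cell sum was 3.56 to 4.53 and the mast-cell and basophil sum 4.18 to 5.53. The NK-cell sum rested mostly on Klrd1, at 5.21 in B220+ cells, 4.19 in Bach2-vector MPPs and -0.48 in control-vector MPPs. Klrb1c averaged -3.75, -4.64 and -4.94 in these groups. These markers were not tested between the groups.

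Across the 7 groups the members fell into patterns that were given no test, since the experiments differ in cells, amplification and slides. Cdkn2a and Cdkn2b were well above background on 8 and 11 of 21 arrays, and Bach2KO follicular B cells were the only group in which all 3 arrays were. Their levels are not ordered across experiments, because the reference signal differs. The processed signal of Cdkn2a itself, before centring, was 109 to 245 on the Bach2KO arrays, and it was of similar size on single arrays elsewhere, at 168 on WT CLP array 3, 153 on control-vector array 2 and 106 and 128 on B220+ arrays 1 and 2. For the main Cdkn2b probe it was 132, 31.9 and 34.8 on the Bach2KO arrays and 11.1, 133 and 61.4 on the control-vector arrays. The other Cdkn2b probe read 389, 145 and 265 on the Bach2KO arrays and 15.6, 142 and 167 on the control-vector arrays. These signals are likewise not ordered across experiments, whose arrays differ in brightness.

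Cdkn2c and Cdkn2d were high in progenitors and lower in follicular B cells. Cdkn2c averaged 3.77 in WT CLPs, 3.69 in B220+ cells, 2.59 in DD CLPs, 2.26 in Bach2-vector MPPs, 1.93 in control-vector MPPs, -0.59 in WT follicular B cells and -0.97 without Bach2. Neighbours in this order overlapped except control-vector MPPs and WT follicular B cells. Cdkn2d averaged 4.94 to 5.60 in the 5 progenitor groups, which overlapped in turn, and, in follicular B cells, 1.89 in WT and 1.26 in Bach2KO.

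Cdkn1a averaged 2.32 to 3.20 in the progenitor groups, 1.43 in Bach2KO and -2.44 in WT follicular B cells. The highest Bach2KO array, at 1.89, stood just below the lowest CLP array, at 1.94, so that WT follicular B cells were the group far below the rest. The other Cdkn1a probe was well above background on all CLP and MPP arrays, at -5.52 and -5.19 in DD and WT CLPs and -1.99 to -1.39 in the 3 MPP groups. Its levels in both CLP groups were below all MPP levels, whereas the main probe's CLP and MPP ranges overlapped.

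Cdkn1b ranged less, from 2.18 in control-vector MPPs to 3.97 in WT CLPs. Cdkn1c averaged -2.34 to -1.20 in progenitors and, in follicular B cells, -3.28 in WT and -4.20 in Bach2KO. Mdm2 had the narrowest range of means, from 3.92 to 4.95. Trp53 averaged -0.85 in DD CLPs, 0.20 in WT CLPs, 0.47 and 1.09 in Bach2KO and WT follicular B cells and 1.03 to 1.38 in the MPP groups.

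**Figure D4:**
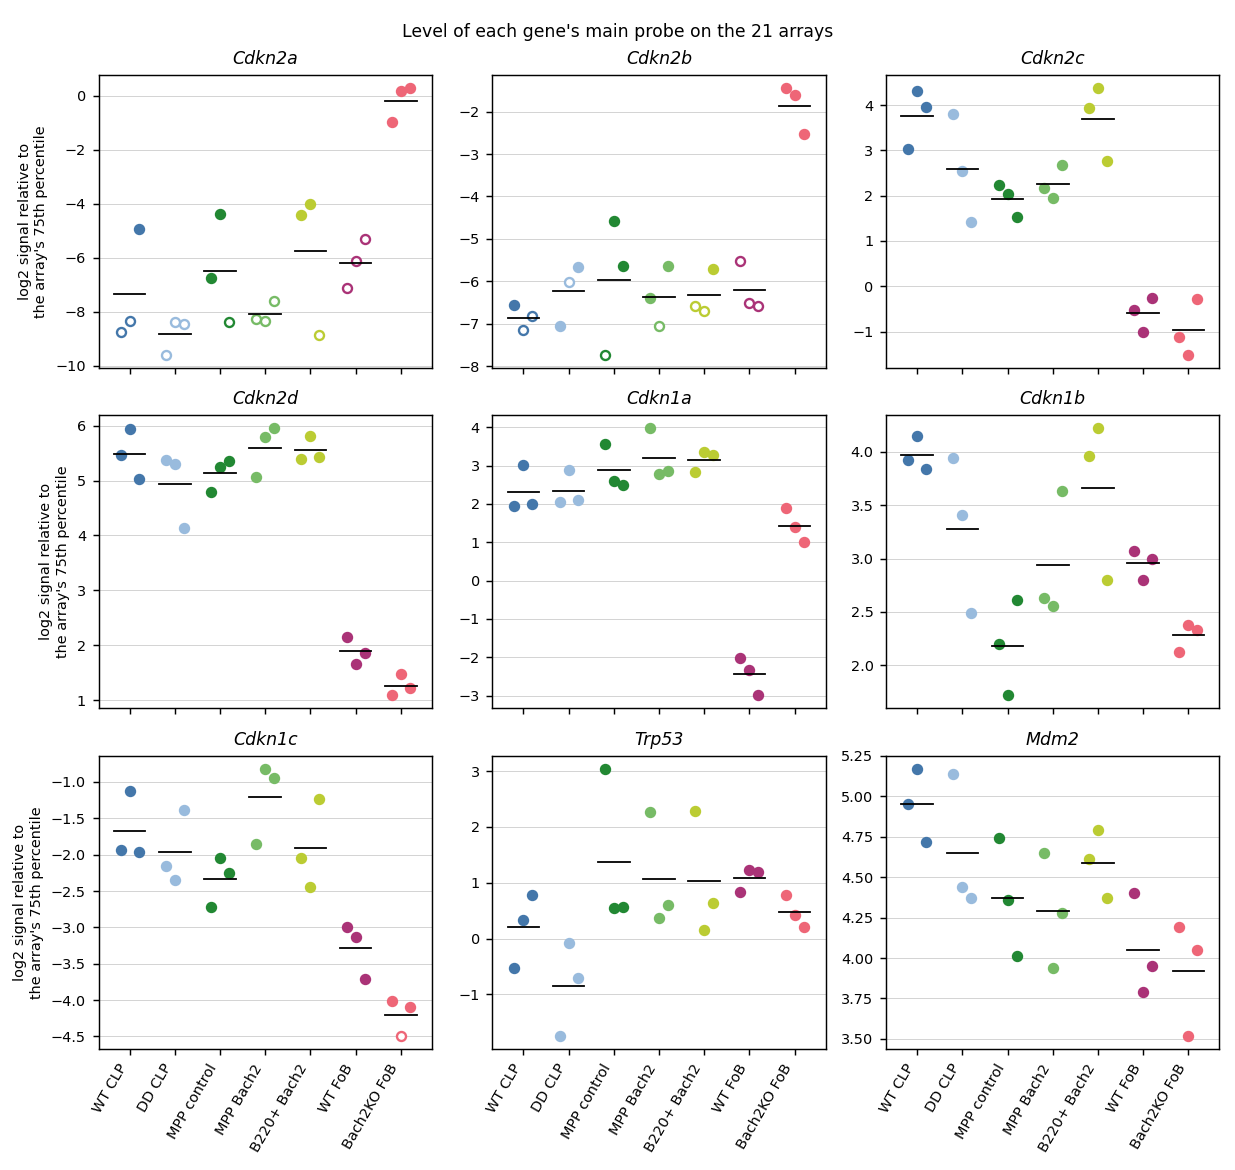
Level of each gene's main probe (vertical axis, log2 signal against the 75th percentile of its array) on the 3 arrays of each of 7 groups, with bars at the group mean and open symbols where the probe was not well above background. Within follicular B cells, Cdkn2a, Cdkn2b and Cdkn1a are higher on all 3 Bach2KO arrays than on any WT array, and Trp53 is high on array 1 of each MPP group.

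The genes whose main-probe levels followed a member most closely were found among 16594 genes by Pearson correlation over the 21 arrays, which share slides and group structure and whose reference signal differs between experiments. They are given as a description. For Cdkn2a they were Htra4 (0.84), Ndrg4 (0.84) and Plau (0.83), for Cdkn2b they included Enam (0.91) and Nbl1 (0.88), and for Cdkn1a Egln3, Fcer1g and Apobr (0.94 each). For Cdkn2c they were Tmem167b, Zfp266 and Zbtb24 (0.97 each) and for Cdkn2d P2rx7 (0.99), Ikzf2 (0.98) and Frat2 (0.98). Cdkn1b was followed by Tstd1 (0.91), Cdkn1c by Pglyrp2 (0.92), Trp53 by Eri3 (0.93) and Mdm2 by Mon1b (0.92). Among the members, Cdkn2a and Cdkn2b correlated at 0.76 and Cdkn2c and Cdkn2d at 0.91, Trp53 and Cdkn1a at 0.01.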

How the data were processed

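The deposited values were spot intensity values, already background-corrected by Feature Extraction (10.7.3.1 per the file headers, 9.1 per the submitters' processing notes). The series' deposited table held the same intensity values (0 differed). Each array had 62976 spots, 3671 of them controls; 0 pairs of arrays were identical. Per the labels' protocols, progenitor RNA was amplified in 2 rounds and that of follicular B cells linearly.

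Spots with outlier marks were left out, spots of a probe averaged, and log2 intensity centred on each array's 75th percentile, control spots aside. RefSeq accessions named 26413 of 55681 probes, and 29268 stayed unnamed. The file headers name an older mouse build, so all coordinates come from RefSeq GRCm38.p6. Genes above background on 3 or more arrays of their experiment, with at least 2 values per group, were tested with limma 3.58.1 (R 4.3.3, data.table, version 1.17.8), the 9 MPP arrays in 1 fit, with Benjamini-Hochberg adjustment over all genes. Python 3.11.15 with pandas, numpy and matplotlib drew the figures and searched the motifs. The number of arrays limits the precision.

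The members, gene lists and tests were chosen with earlier results of these data known. All 9 members are named in every comparison and up to 4 genes of each other list with the smallest p; Skp2 had no named probe. Likeness names the 3 genes with the highest correlation per member; of Cdkn2a, Cdkn1a, Cdkn2c and Cdkn2d all 3 are given. Of the genes these rules and the marker lists hold, 3 are not reported here by name.

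Replicate numbers in the labels were taken to pair the arrays in 3 comparisons, where deviations of same-numbered arrays correlated above the limit of 0.1. They did so at 0.22 to 0.43 in CLPs, 0.30 to 0.65 between vectors and 0.53 to 0.86 in follicular B cells. Arrays of different number reached 0.073, 0.31 and 0.5. The 0.31 and 0.5 were between arrays 2 and 3, which shared a slide, so pairing and slide cannot be fully told apart. In the B220+ comparisons they correlated at -0.06 to 0.12 and 0.084 to 0.12, and the numbers were not taken to pair them. On data simulated with independent spread per array, the fit recovered 2% to 18% of 2-fold and 90% to 96% of 16-fold changes, depending on the comparison. Normexp was run on the median spot signal, since the files used here hold no mean signal. Alternatives were other background correction, normalization, filters, outlier handling, probe choice, variance trend, replicate and slide blocks, and leaving out arrays.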

Additional observations from a re-analysis of the deposited data

Results flagged for a closer look

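The effect of losing Bach2 in follicular B cells was set against that of losing Bach1 and Bach2 in CLPs, as a difference of differences in 1 fit over both experiments, chosen after the values were seen. In it 81 of 16690 genes passed (0.485%), 3 members among them. Cdkn1a differed by 3.85 ± 0.60 on the log2 scale (limma adjusted p = 0.0117), from 3.88 in follicular B cells and 0.02 in CLPs, higher in 3 of 3 follicular B-cell pairs and 2 of 3 CLP pairs. Cdkn2b differed by 3.73 ± 0.65 (adjusted p = 0.0194), from 4.35 and 0.62. Cdkn2a differed by 7.47 ± 1.18 (adjusted p = 0.0119), from 6.00 and -1.47, though it was not tested in CLPs alone. In CLPs Cdkn2a was above background on 1 of 6 arrays, the third of WT, at -4.93, and in follicular B cells on 0 of 3 WT arrays. It met the filter of this fit through that array and the 3 Bach2KO arrays. Its 7.47 and the p-value thus rest mostly on values not above background and are no measured size. Cdkn2b was likewise above background on 0 WT follicular B-cell arrays, so its value is no measured size either. The other Cdkn2b probe differed by -1.23 in CLPs, opposite to the main probe. The other 6 members had adjusted p-values of 0.838 to 0.998. Cell type, the second deleted factor, anti-IgM culture, amplification and slides all differ between the experiments and cannot be told apart.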

How the results depend on the processing

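Alternatives were counted for a member's difference only where the member was still tested. Of these, 723 kept their direction and side of the threshold and 47 changed the sign of a value that had not passed. A further 11 gained and 8 lost the call, and 0 passing values changed sign. Where tested, Cdkn2a passed in 16 of 16 settings in follicular B cells (1.97 to 6.44 on the log2 scale) and Cdkn2b in 16 of 17 (0.99 to 6.07). Cdkn1a passed in 19 of 20 (1.66 to 4.29), and Cdkn2c in 12 of 18 against control-vector MPPs (1.42 to 2.23). For Cdkn2a and Cdkn2b these counts leave out the filter on all arrays and the planned runs without a Bach2KO array, where they were not tested. They include the added runs with the filter at 2 arrays, and the deposited table, which held the same values. Members passing in follicular B cells numbered 1 with the filter on all arrays, where Cdkn2a and Cdkn2b are not tested, and 1 to 3 leaving out an array. Against control-vector MPPs, B220+ cells had 2 members passing with the filter on all arrays or a variance trend, 3 under quantile normalization, 0 with only both groups fitted or slide as a block, and 0 to 2 leaving out an array; against Bach2-vector MPPs 0 to 2. All genes passing in follicular B cells numbered 123 under normexp, 1196 with slide as a block, 110 to 371 leaving out an array, and 161 without Bach2KO array 3 with the filter at 2 arrays, an alternative added after seeing the data. Leaving out an array gave 96 to 198 between vectors, 1028 to 2638 for B220+ cells against control-vector MPPs, 448 to 1699 against Bach2-vector MPPs (670 with only both groups fitted), and 0 to 28 in CLPs (0 with slide as a block). The cause was not tested.

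With the replicate block, all genes passing numbered 2980 of 13073 in follicular B cells and 0 of 16466 in CLPs. Members passing in follicular B cells numbered 6 of 9. It changed the call of 3 members, Cdkn1b, Cdkn1c and Cdkn2d in follicular B cells, and of no other member. In the B220+ comparisons, where the numbers do not pair the arrays, it moved no count of calls past 1.5 times.

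A probe near background has only a bound on its change, which touches Cdkn2a, Cdkn2b and the other Cdkn1a probe. Cdkn1c was also dim in Bach2KO follicular B cells, with processed signals of 22.2, 4.33 and 11.8, array 2 not being well above background. Its calls as lower under the blocks carry that limit. The simulated recovery of 2% for 2-fold changes in follicular B cells was for the fit without a block. It used genes drawn at random and independent spread per array, whereas arrays of equal replicate number deviated together here. It cannot say whether differences of the size seen for Trp53, Cdkn2d and Cdkn1b were detectable. The fit with the replicate block called Cdkn2d and Cdkn1b from the same arrays.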

Other observations

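Trp53 was high on array 1 of all 3 MPP groups. It read 3.04, 2.26 and 2.28 there in control-vector MPPs, Bach2-vector MPPs and B220+ cells, and 0.16 to 0.63 on the other 6 arrays, which include B220+ arrays 2 and 3 of the same slide as the number 1 arrays. The Trp53 probe is printed in 2 spots per array. Between groups this pattern gives Trp53 the widest interval of the members well above background on every MPP array, -2.18 to 1.56 for Bach2-vector against control-vector MPPs. Array 1 was not set apart in this way for Mdm2, at 4.74, 4.65 and 4.61 against 3.94 to 4.79 on the other arrays. Cdkn1a was also highest on array 1 with both vectors, at 3.57 and 3.97 against 2.50 to 2.87, but lowest there in B220+ cells, at 2.82 against 3.28 and 3.36.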
